A study of Oryza sativa with 8 samples.

Results

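The 134 genes described here encode the histones, the cyclins and part of the DNA replication machinery of rice (*Oryza sativa*), and they were taken from the 37869 genes of the deposited table by their descriptions alone. A gene was kept when its description named a histone H1, H2A, H2B, H3 or H4, a cyclin, DNA replication, minichromosome maintenance or MCM, and it was left out when the description also named an F-box protein, a methyltransferase, a kinase inhibitor or a cyclin-dependent product. The 134 comprise 62 histone genes, 51 cyclin genes, 9 MCM genes, 3 other replication genes, 6 genes of a cyclin-related domain family and 3 genes that matched only by wording, namely 2 genes for the Eaf6 subunit of a histone acetyltransferase and 1 gene for cyclin-dependent kinase C. Total RNA was sequenced from whole roots of 2-week-old plants of the cultivar Ilmi in 8 libraries, 4 from *ROX* plants, which carry *OsERF48* behind the root-specific *RCc3* promoter, and 4 from nontransgenic (NT) plants without a transgene. Both genotypes were grown under normal conditions without drought treatment. The *ROX* libraries came from 2 transgenic lines (#2 and #6), but the column names do not give the line, so the lines were pooled, and whether a set below holds 1 line or both is not known. The names fall into 2 styles with 2 *ROX* and 2 NT libraries each, named Root and Set libraries after a word in them. The promoter and tissue of the Set libraries are not in their names and were inferred. The only *OsERF48* transgenic samples listed carry the *RCc3* promoter, and the tissue was taken from the description of the study.

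Histones package DNA into nucleosomes, and most histone genes of dividing cells are transcribed while DNA is copied. MCM proteins form the helicase that opens the replication fork, and PCNA is the sliding clamp that holds DNA polymerase on its template. Cyclins are the regulatory partners of cyclin-dependent kinases. D-type cyclins act at the entry into the cycle, A-type cyclins in DNA synthesis and after it, B-type cyclins at mitosis, and T-, H- and L-type cyclins mainly in transcription. In a root, division is concentrated in the meristem at the tip and in young lateral roots. Transcripts of those members that serve DNA copying or division are therefore expected mainly in those cells.

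Values are FPKM, fragments per kilobase of transcript scaled to the mapped fragments of a library, so levels may be compared between genes. Depth, estimated from the steps between low values, was 37600000 to 43600000 fragments in the Root libraries and 46600000 to 49700000 in the Set libraries. Between libraries of 1 set, log2(FPKM + 1) correlated with coefficients from 0.962 to 0.997, and between the sets with coefficients from 0.828 to 0.888 over 26136 genes. In squared deviations, the median spread within a pair was 2.01 times that of counting error alone for Root *ROX* and 1.19 times for Root NT. It was 5.72 times for Set *ROX* and 4.19 times for Set NT. The Root NT libraries thus differed by little more than counting error. The methods describe technical replicates, so a pair may be 1 RNA sample measured again, and p-values measure only the spread between these libraries. *OsERF48* (Os08g0408500) itself had 464 and 469.6 FPKM in Root *ROX* against 86.6 and 86.2 FPKM in Root NT, and 816 and 612 FPKM in Set *ROX* against 65.9 and 59.3 FPKM in Set NT, higher in all 4 *ROX* libraries as labelled. The native *RCc3* gene (Os02g0662000), the root marker, had 152 and 161 FPKM in Root *ROX* against 321 and 307 FPKM in Root NT, and 1581 and 1540.2 FPKM in Set *ROX* against 1236 and 1608 FPKM in Set NT. The summed FPKM of 11 leaf markers (small subunits of ribulose bisphosphate carboxylase and chlorophyll a/b-binding proteins) was 20.8 and 22.5 in Root *ROX* against 35.0 and 33.4 in Root NT, and 9.16 and 9.83 in Set *ROX* against 10.4 and 9.97 in Set NT. The part that either marker shift has in the results below was not tested.

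Of the 134 genes, 105 had a mean of at least 0.5 FPKM over the 8 libraries and were tested with limma, 13 lay below that mean, and 16 were listed at 0 in all libraries. The 16 comprised 6 histone H3, 2 H2A and 2 H2B genes and 6 cyclins. The tested core histones, 42 in number, belong to families of near-identical copies, and how fragments were shared among the copies is not stated, so values of single copies are uncertain. 21 of the 105 overlap another gene. Most members had a lower mean in *ROX* within Root and a higher one within Set libraries, but the Set differences were small. Within Set the median log2 difference was 0.24 for the core histones and 0.040 for the MCM genes. It was 0.041 for the D-type and -0.032 for the B-type cyclins. Within the Root libraries 92 of the 105 had a lower mean in *ROX* roots than in NT roots (60.2% of all genes tested), within the Set libraries 80 had a higher mean in *ROX* roots (44.1%), and 72 did both (24.9%). With no overlap between the libraries of the genotypes in either set, 41 were below NT in Root *ROX* and above NT in Set *ROX* (7.99% of all genes tested).

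By limma, with p-values adjusted over all 26136 genes and called under 0.05, 70 of the 105 fell and 4 rose in *ROX* roots within the Root libraries, where 30.3% of all genes tested fell and 19.6% rose. Counts of called genes by kind given below for the Root libraries stand against these shares. The median log2 difference of the 105 was -0.32 within the Root libraries, against -0.073 over all genes tested. Within the Set libraries no member was called, where 1.19% of all genes tested were. At an unadjusted p under 0.05, 22 members were higher and 2 lower in Set *ROX* roots (7.05% and 8.7% of all genes), and the median was 0.11, against -0.024. The difference between the sets was itself tested as an interaction of set and genotype. For 49 members the Root difference lay below the Set difference, and for 3 above it (10.8% and 10.7% of all genes tested). Library set and transgenic line cannot be told apart in this comparison. In bulk roots, fewer cells of a type and less RNA per cell cannot be told apart.

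**Figure D1:**
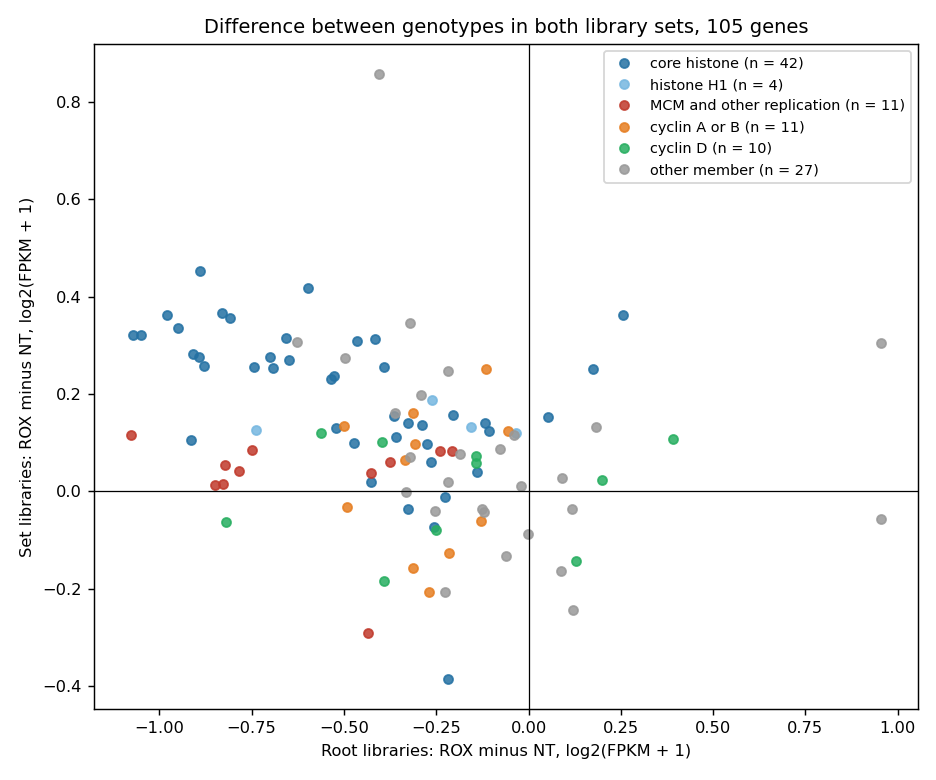
Difference of mean log2(FPKM + 1) between *ROX* and NT within Root (x axis) and within Set libraries (y axis) for the 105 tested genes, 1 point a gene, coloured by kind. Most core histones lie at the upper left, lower in Root *ROX* and higher in Set *ROX*, and PCNA with 5 MCM genes lies at the far left near 0 on the y axis.

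Core histones, the 4 kinds that form the nucleosome, made up the largest block. 35 of the 42 fell and 1 rose in Root *ROX* roots (30.3% and 19.6% of all genes tested). By the interaction test 31 had a lower difference in the Root than in the Set libraries (10.8% of all genes tested). Summed over the 42 genes, the level was 2794 and 2873 FPKM in Root *ROX* against 3699 and 3674 FPKM in Root NT, and 5014 and 5280.3 FPKM in Set *ROX* against 4448 and 4843 FPKM in Set NT. Both Root *ROX* sums lay below both Root NT sums, and both Set *ROX* sums above both Set NT sums. The median ratio of *ROX* to NT was 0.711 within Root and 1.19 within Set libraries. In the Set libraries 33 of the 42 had both *ROX* values above both NT values (20.1% of all genes tested), 19 of them at an unadjusted p under 0.05 and none after adjustment. Across the 42 genes the Root and Set differences correlated with Pearson's r = -0.48 and Spearman's rho = -0.59, and across all genes tested with r = 0.20 and rho = 0.10, as descriptions over genes that share the same libraries.

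H2A, which pairs with H2B in the nucleosome, had 12 tested genes, of which 10 fell in Root *ROX* roots and all 12 had both Set *ROX* values above both Set NT values. The 10 that fell included Os03g0279200 (chromosome 3, 9498973 to 9499826, IRGSP-1.0), which had 35.6 and 36.6 FPKM in Root *ROX* against 72.8 and 68.7 FPKM in Root NT. In the Set libraries it had 309 and 305 FPKM in *ROX* against 226 and 262 FPKM in NT. It fell by 0.95 on the log2 scale within Root (standard error 0.043, limma adjusted p = 4.25e-05), and the difference between the sets was -1.28 (adjusted p = 4.50e-04). Os10g0418000 had 6.44 and 7.38 FPKM in Root *ROX* against 14.3 and 14.9 FPKM in Root NT, and 49.5 and 47.9 FPKM in Set *ROX* against 36.1 and 39.3 FPKM in Set NT. The H2A gene with the highest mean, Os05g0461400, had 172 and 179 FPKM in Root *ROX* against 231 and 220.2 FPKM in Root NT, and 149 and 163 FPKM in Set *ROX* against 144 and 145 FPKM in Set NT. It fell by 0.36 in the Root libraries (adjusted p = 9.95e-04). The remaining H2A genes with no call in the Root libraries were Os03g0144700 and Os03g0721900, both below 5 FPKM there and named after their values were seen.

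H3 and H4 form the central tetramer of the nucleosome. Of 9 H3 genes 8 fell in Root *ROX* roots, and of 10 H4 genes 9 fell and 1 rose. Os06g0159450 (H3, chromosome 6, 3040365 to 3041231) had 7.34 and 7.86 FPKM in Root *ROX* against 17.00 and 17.1 FPKM in Root NT, a fall of 1.07 on the log2 scale (standard error 0.058, limma adjusted p = 7.65e-05). Its Set values were 70.5 and 81.99 FPKM in *ROX* against 53.4 and 68.9 FPKM in NT, higher in both *ROX* libraries. Os05g0438700, another H3 gene, had 17.4 and 18.6 FPKM in Root *ROX* against 36.04 and 32.4 FPKM in Root NT, and 142 and 145 FPKM in Set *ROX* against 93.2 and 117 FPKM in Set NT. The most abundant gene of all 105 was the H3 gene Os03g0390600. It had 659 and 639.7 FPKM in Root *ROX* against 769.8 and 783 FPKM in Root NT and 542 and 625 FPKM in Set *ROX* against 593 and 632 FPKM in Set NT, where the genotypes overlapped. The next H3 gene by level, Os04g0450800, had 193 and 191 FPKM in Root *ROX* against 253 and 264 FPKM in Root NT, and 186 and 203 FPKM in Set *ROX* against 191 and 192 FPKM in Set NT. Both of these H3 genes overlap another gene. The most abundant H4 gene, Os09g0553100, had 339 and 357 FPKM in Root *ROX* against 437 and 436 FPKM in Root NT, with overlapping Set values of 419 and 478 FPKM in *ROX* against 446 and 473 FPKM in NT. Os10g0539500, the second H4 gene by level, had a ratio of *ROX* to NT of 0.867 within Root and 1.12 within Set libraries. The H4 gene that rose, Os07g0549900, was named after its values were seen. It had 37.98 and 39.5 FPKM in Root *ROX* against 34.4 and 34.03 FPKM in Root NT, and 72.2 and 74.2 FPKM in Set *ROX* against 57.3 and 65.6 FPKM in Set NT, higher in *ROX* in both sets.

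H2B, the partner of H2A, had a median ratio of *ROX* to NT of 0.776 within Root and 1.07 within Set libraries, where H2A had 0.598 and 1.20. The difference between the families was not tested. Of 11 H2B genes 8 fell in Root *ROX* roots. Os08g0490900 (chromosome 8, 24261228 to 24262081) had 18.3 and 17.04 FPKM in Root *ROX* against 37.6 and 37.7 FPKM in Root NT, a fall of 1.05 on the log2 scale (standard error 0.049, limma adjusted p = 4.66e-05). Its Set values of 148 and 149.9 FPKM in *ROX* lay above the 113 and 126 FPKM in NT, and the difference between the sets was -1.37 (adjusted p = 2.10e-04). Os01g0153100, the most abundant H2B gene, is 1 of 5 H2B genes that lie next to each other among the histone genes of chromosome 1, between 2820074 and 2872826. It had 131 and 134 FPKM in Root *ROX* against 175 and 167 FPKM in Root NT, and 245 and 259 FPKM in Set *ROX* against 215 and 239 FPKM in Set NT. Within that row of 5, the ratio of *ROX* to NT ran in the Root libraries from 0.694 (Os01g0152900) to 0.905 (Os01g0152700), and in the Set libraries from 1.03 to 1.11. The ends of that range were named after their values were seen.

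Neighbouring histone genes could differ. The H2B gene Os03g0279000 ends 5460 bases before the H2A gene Os03g0279200 begins. Os03g0279000 had 172 and 174 FPKM in Root *ROX* against 205 and 199 FPKM in Root NT, and 163 and 161 FPKM in Set *ROX* against 165 and 161 FPKM in Set NT. It was within 161 to 205 FPKM in all 8 libraries, whereas the H2A gene was 3.45 times as high in Set NT as in Root NT. Of the 42 core histone genes 25 have a transcript that fills its locus, so no intron, and 17 have a locus longer than the transcript. The median ratio of *ROX* to NT was 0.705 for the genes without an intron and 0.744 for the longer loci within Root, and within Set 1.18 without an intron and 1.19 for the longer loci.

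Linker histone H1, which binds the DNA between nucleosomes, had 4 tested genes, of which 2 fell in Root *ROX* roots (30.3% of all genes tested). Os04g0253000 had 100.2 and 108 FPKM in Root *ROX* against 174 and 174 FPKM in Root NT, a fall of 0.74 on the log2 scale (limma adjusted p = 1.07e-04). Its Set values were 107 and 97.8 FPKM in *ROX* against 90.3 and 97.2 FPKM in NT, so the Root NT libraries were the high ones of the 8. Os03g0799000 had 137 and 144 FPKM in Root *ROX* against 168 and 170.0 FPKM in Root NT, and 157 and 151 FPKM in Set *ROX* against 129 and 142 FPKM in Set NT. All 4 H1 genes overlap another gene, and the 2 not called in the Root libraries overlap each other. The centromeric histone H3, which marks the site of kinetochore assembly and was named after its values were seen, fell to 2.01 and 1.74 FPKM in Root *ROX* against 2.57 and 3.62 FPKM in Root NT, and had 8.19 and 7.19 FPKM in Set *ROX* against 5.44 and 7.004 FPKM in Set NT (Os05g0489800, limma adjusted p = 0.0292 in the Root libraries).

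**Figure D2:**
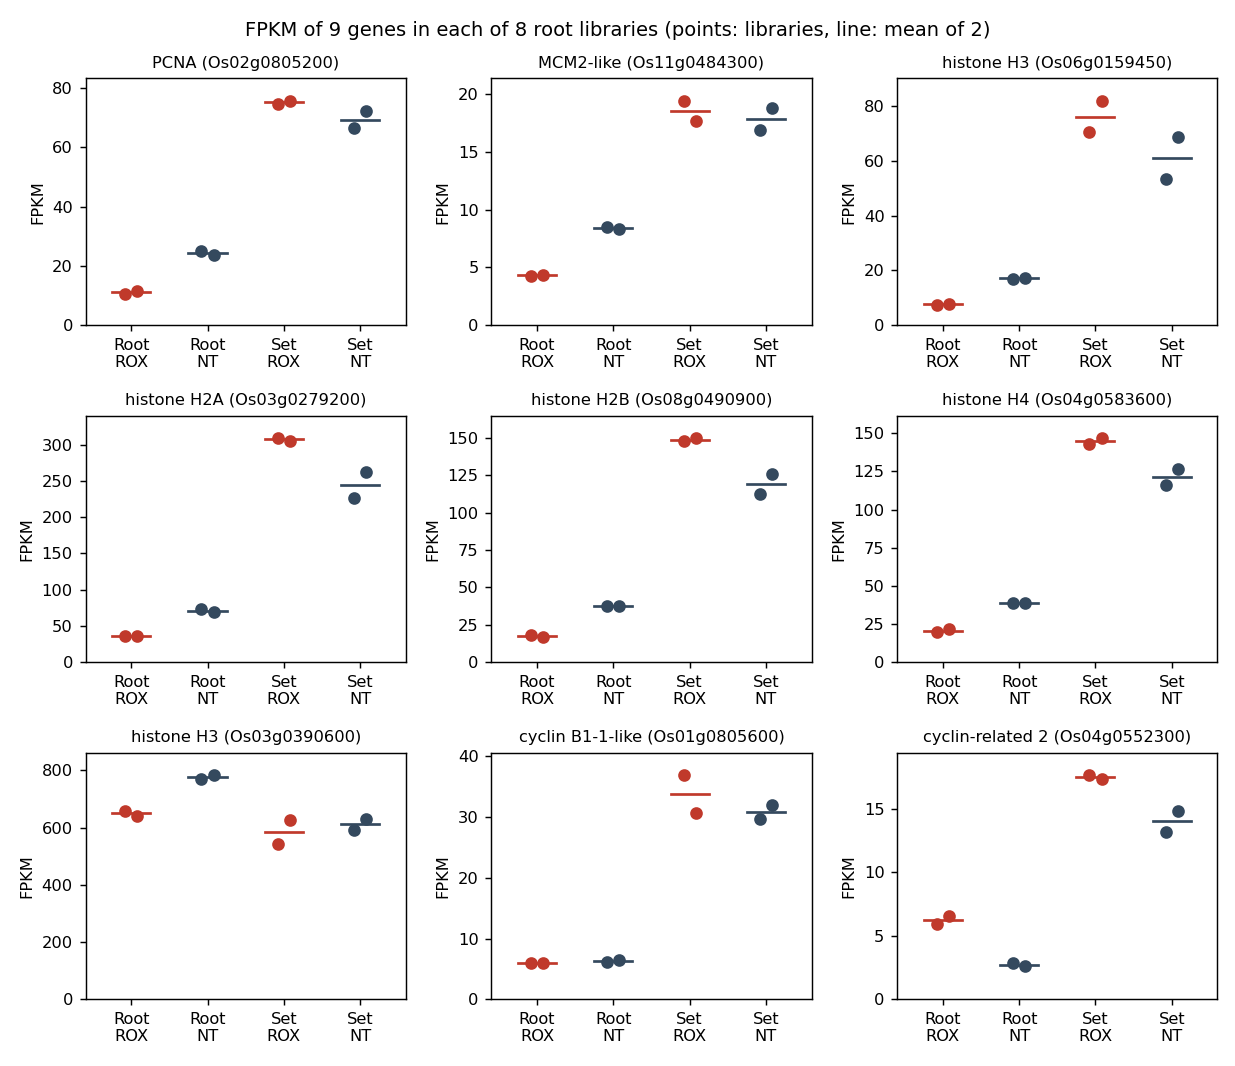
FPKM (y axes, each from 0) of 9 genes in each library of Root *ROX*, Root NT, Set *ROX* and Set NT. Points are libraries and lines are means of 2. PCNA, the MCM2-like gene and 4 of the histone genes were lowest in Root *ROX* and several times higher in both Set groups, while the H3 gene Os03g0390600 varied between 542 and 783 FPKM and the cyclin-related gene Os04g0552300 was higher in *ROX* in both sets.

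Of the MCM genes, all 8 that were tested fell in Root *ROX* roots, 6 of them to between 0.385 and 0.514 of the NT level, and none was called in the Set libraries, where 1 was lower at an unadjusted p under 0.05. The MCM2-like gene Os11g0484300 (chromosome 11, 17046950 to 17052914) had 4.28 and 4.39 FPKM in Root *ROX* against 8.54 and 8.32 FPKM in Root NT, a fall of 0.82 on the log2 scale (standard error 0.065, limma adjusted p = 3.14e-04). In the Set libraries the genotypes overlapped, at 19.4 and 17.7 FPKM in *ROX* against 16.9 and 18.8 FPKM in NT. Os01g0544450 had 2.44 and 2.14 FPKM in Root *ROX* against 5.13 and 4.74 FPKM in Root NT, Os05g0476200 had 2.47 and 2.29 FPKM against 4.80 and 4.83 FPKM, Os05g0235800 had 1.69 and 1.95 FPKM against 4.21 and 3.81 FPKM, and Os02g0797400 had 1.95 and 2.000 FPKM against 3.89 and 4.10 FPKM. All 4 of these lay between 10.04 and 16.9 FPKM in the Set libraries, and their Set ratios ran from 1.01 to 1.07. For these 5 genes the difference between the sets was called, at -0.83 to -0.88.

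The other MCM genes had no called difference between the sets. Os06g0218500, the most abundant, was lower in *ROX* in both sets, with 18.03 and 17.6 FPKM in Root *ROX* against 24.4 and 24.4 FPKM in Root NT and 33.6 and 33.8 FPKM in Set *ROX* against 40.3 and 42.6 FPKM in Set NT. With the set as a covariate it fell by 0.36 on the log2 scale (standard error 0.051, limma adjusted p = 0.0106). It overlaps Os06g0218600. Os05g0173700 had 4.29 and 4.61 FPKM in Root *ROX* against 5.55 and 5.32 FPKM in Root NT, and 4.48 and 4.32 FPKM in Set *ROX* against 4.21 and 3.997 FPKM in Set NT, and was the 1 tested MCM gene with a lower level in Set NT than in Root NT. Os09g0539400, an MCM10-like gene, was at 0.337 and 0.211 FPKM in Root *ROX* against 0.786 and 0.638 FPKM in Root NT, and at 2.32 and 1.98 FPKM in Set *ROX* against 2.13 and 1.99 FPKM in Set NT. Its Root minus Set difference was -0.46 (adjusted p = 0.0582). The remaining MCM gene, Os05g0464100, lay below the filter.

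PCNA (Os02g0805200, chromosome 2, 34351407 to 34353530) had the largest Root fall of the 105 genes on the log2(FPKM + 1) scale, and by the ratio of mean FPKM, 0.453, other members fell further. It had 10.5 and 11.7 FPKM in Root *ROX* against 25.01 and 23.8 FPKM in Root NT, a log2 difference of -1.08 (standard error 0.065, limma adjusted p = 1.16e-04). The Set libraries had 74.7 and 75.7 FPKM in *ROX* against 66.4 and 72.3 FPKM in NT, with the *ROX* values above NT by 0.12 on the log2 scale (adjusted p = 0.560). The CDT1-like gene Os04g0185100, whose product loads the MCM helicase, had 0.751 and 0.843 FPKM in Root *ROX* against 1.51 and 1.15 FPKM in Root NT, and 3.94 and 4.24 FPKM in Set *ROX* against 3.64 and 4.13 FPKM in Set NT. By the limits of the study, a 2-fold change and an unadjusted p under 0.05, 3 of the 105 genes passed in the Root libraries when the 2-fold limit was set on the log2(FPKM + 1) scale, namely PCNA, the H3 gene Os06g0159450 and the H2B gene Os08g0490900, all lower in *ROX* (0.937% of all genes tested passed downward), and none passed in the Set libraries (1.48%). With the limit set on the ratio of mean FPKM, 15 passed downward and 3 upward in the Root libraries (3.75% and 6.07% of all genes tested). The 15 include 5 MCM genes. Only cyclin P1-1 then passed in the Set libraries (3.24%).

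**Figure D3:**
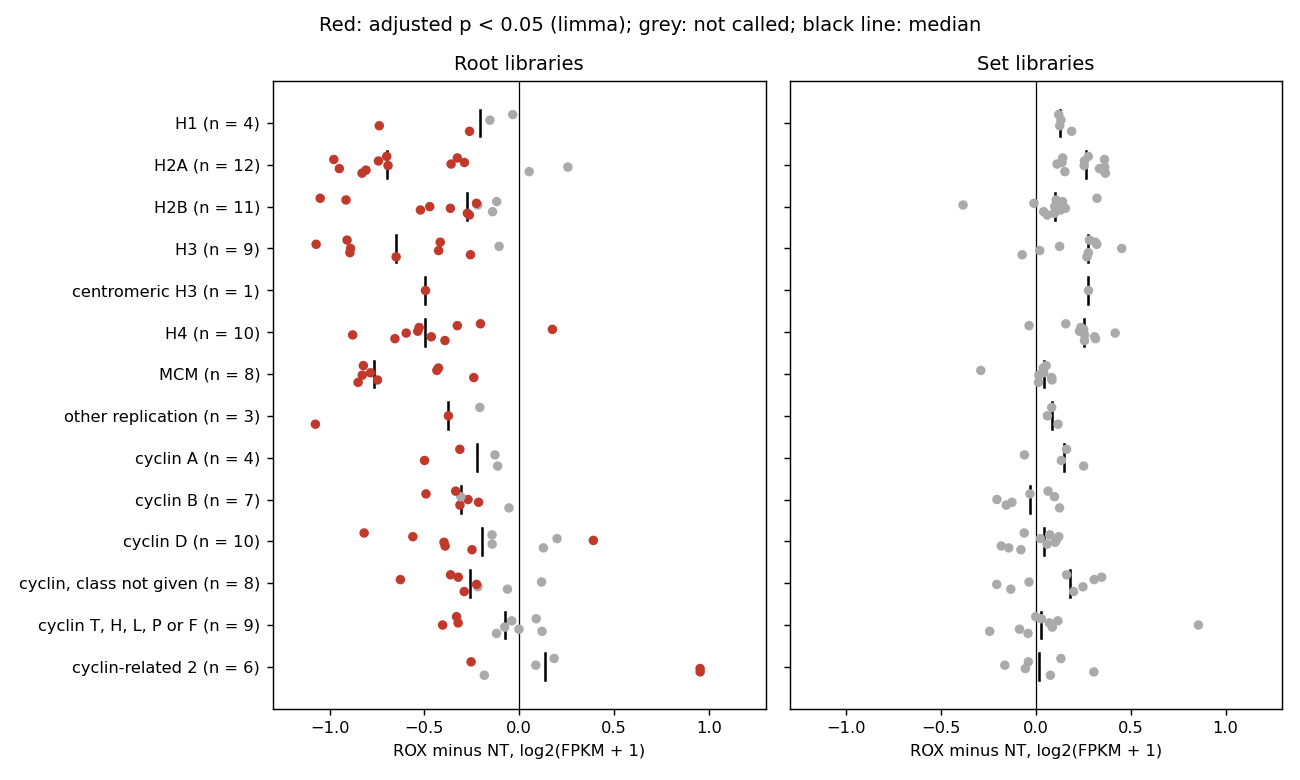
Difference of mean log2(FPKM + 1) between *ROX* and NT (x axes) within Root (left) and within Set libraries (right) for each tested gene by kind (rows). Red points had a limma adjusted p under 0.05, grey points did not, and black lines are medians. The medians of H2A, H2B, H3 and H4 lie left of 0 in the Root panel and right of 0 in the Set panel, and no point is red in the Set panel.

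Cyclins give the stages of the cycle their order. Of 38 tested cyclins 20 fell and 1 rose in Root *ROX* roots (30.3% and 19.6% of all genes tested). The median ratio of *ROX* to NT was 0.816 within Root and 1.05 within Set libraries. Among the A-type cyclins 2 of 4 fell. Os03g0607600 (cyclin A3-1-like) had 0.910 and 1.01 FPKM in Root *ROX* against 1.72 and 1.81 FPKM in Root NT, and 6.35 and 5.48 FPKM in Set *ROX* against 5.03 and 5.56 FPKM in Set NT. Os12g0298950 (cyclin A1-3-like), the most abundant A-type gene, was 0.895 of NT in Root *ROX* and 0.942 of NT in Set *ROX*, with no call.

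The 7 B-type cyclins fell into genes of steady level and genes that differed several-fold between the sets. Os02g0800500 had 18.1 and 17.9 FPKM in Root *ROX* against 22.5 and 22.7 FPKM in Root NT, and 17.9 and 16.9 FPKM in Set *ROX* against 20.3 and 18.8 FPKM in Set NT. Os02g0801300 (cyclin B1-2-like) had 10.98 and 10.2 FPKM in Root *ROX* against 13.3 and 12.6 FPKM in Root NT, and 10.6 and 9.83 FPKM in Set *ROX* against 12.2 and 11.6 FPKM in Set NT. Both genes lay lower in *ROX* in both sets with no overlap, and with the set as a covariate they fell by 0.23 and 0.24 on the log2 scale (limma adjusted p = 0.0497 and 0.0499). Like the other 3 calls of that fit, these were lost with averaged pairs, with a replicate block and without either Root NT library. Os01g0805600 (cyclin B1-1-like) differed little between the genotypes, with 6.06 and 6.02 FPKM in Root *ROX* against 6.18 and 6.44 FPKM in Root NT and 36.9 and 30.7 FPKM in Set *ROX* against 29.6 and 31.96 FPKM in Set NT. Its level in Set NT was 4.88 times that in Root NT. Os05g0493500 and Os06g0726800, named after their values were seen, were 5.75 and 5.48 times as high in Set NT as in Root NT, and their ratios of *ROX* to NT were 0.748 and 0.731 in the Root libraries. limma's interaction was called for none of the 7 B-type genes, and 1 had an unadjusted p under 0.05 (35.9% of all genes tested did).

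Of the D-type cyclins 5 of 10 fell and 1 rose in Root *ROX* roots (30.3% and 19.6% of all genes tested). Os03g0617500 had 14.4 and 15.2 FPKM in Root *ROX* against 19.9 and 19.5 FPKM in Root NT, and 13.9 and 12.6 FPKM in Set *ROX* against 15.6 and 14.7 FPKM in Set NT. Within each set both of its *ROX* values lay below both NT values. With the set as a covariate it fell by 0.29 on the log2 scale (limma adjusted p = 0.0443). Os03g0203800, the most abundant D-type gene, had 16.9 and 16.7 FPKM in Root *ROX* against 14.9 and 15.7 FPKM in Root NT and 20.7 and 20.2 FPKM in Set *ROX* against 21.5 and 23.9 FPKM in Set NT, with no call in either set. Os12g0588800, named after its values were seen, had the largest Root fall of the D-type genes on the log2(FPKM + 1) scale. By the ratio of mean FPKM, other D-type genes fell further. Os12g0588800 had 2.61 and 2.87 FPKM in Root *ROX* against 5.45 and 5.74 FPKM in Root NT. Its Set values overlapped, at 6.88 and 6.95 FPKM in *ROX* against 6.90 and 7.65 FPKM in NT.

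The T-, H-, L- and P-type cyclins had 3 of 9 genes called, all lower in Root *ROX* (30.3% of all genes tested), and a median ratio of *ROX* to NT of 0.943 within Root and 1.02 within Set libraries. Os09g0504400 had 60.05 and 55.3 FPKM in Root *ROX* against 59.3 and 59.2 FPKM in Root NT, and 51.4 and 51.3 FPKM in Set *ROX* against 47.9 and 46.7 FPKM in Set NT. The L-type gene Os01g0377500 had ratios of 0.917 and 0.970 in the Root and Set libraries. Cyclin T1-1 (Os02g0133000) went the opposite way to most of the 105, with 28.5 and 28.7 FPKM in Root *ROX* against 26.7 and 25.7 FPKM in Root NT and 18.6 and 20.3 FPKM in Set *ROX* against 23.7 and 22.7 FPKM in Set NT. Only its difference between the sets was called (0.36, limma adjusted p = 0.0270). Cyclin P1-1 (Os04g0628900), named after its values were seen, had the highest Set ratio of the 105 genes, 2.49. It had 3.20 and 2.72 FPKM in Set *ROX* against 1.04 and 1.34 FPKM in Set NT (limma adjusted p = 0.0697), while Root *ROX* had 3.39 and 2.73 FPKM against 4.37 and 4.34 FPKM in Root NT, where it fell (adjusted p = 0.0195).

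The genes of the cyclin-related domain family, whose function is not known here, held the members that rose most. Os04g0552300 (chromosome 4, 27661549 to 27662832) had 5.90 and 6.58 FPKM in Root *ROX* against 2.88 and 2.60 FPKM in Root NT, and 17.7 and 17.4 FPKM in Set *ROX* against 13.2 and 14.8 FPKM in Set NT. It was higher in *ROX* in each set with no overlap, and was the only member that rose with the set as a covariate, by 0.63 on the log2 scale (standard error 0.14, limma adjusted p = 0.0379). Os05g0325200 had 7.91 and 8.13 FPKM in Root *ROX* against 3.32 and 4.02 FPKM in Root NT, a rise of 0.95 (adjusted p = 6.68e-04), and 1.85 and 1.43 FPKM in Set *ROX* against 2.17 and 1.36 FPKM in Set NT, where the genotypes overlapped.

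Over both sets together, with the set as a covariate, 5 of the 105 genes were called, 4 lower and 1 higher in *ROX* roots, where 4.34% of all genes tested fell and 2.74% rose. They are the MCM gene Os06g0218500, the B-type cyclins Os02g0800500 and Os02g0801300, the D-type cyclin Os03g0617500 and the cyclin-related gene Os04g0552300. None of them is a histone. At an unadjusted p under 0.05 there were 14 (27.9% of all genes tested), and none passed the limits of the study (1.63%). The count came to 0 without either Root NT library and to 1 without either Root *ROX* library or without the first Set NT library, and to 2 without the second Set *ROX* library.

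The level of these genes in NT roots also differed between the library sets. On the log2(FPKM + 1) scale 39 of the 105 genes were at least 2-fold higher in Set NT than in Root NT and 2 at least 2-fold lower (13.8% and 6.87% of all genes tested), and the median difference was 0.61 against 0.059 over all genes tested. By the ratio of mean FPKM, 45 genes were at least 2-fold higher in Set NT, and the share of all genes by this rule was not computed. Over all genes tested the median ratio of Set NT to Root NT was 1.05. The median ratio of Set NT to Root NT was 3.09 for cyclins of no given class, 2.93 for A-type cyclins, 2.84 for the other replication genes, 2.67 for the MCM genes, 2.56 for H2A, 2.13 for the cyclin-related family, 1.86 for H4 and 1.80 for H3. It was 1.41 for D-type cyclins, 1.33 for H2B, 1.04 for H1, 0.919 for B-type cyclins and 0.799 for the T-, H-, L- and P-type cyclins. The 45 genes at least 2-fold higher in Set NT had a median Root ratio of *ROX* to NT of 0.630, and the other 60 one of 0.822, a description in which both ratios share the Root NT libraries. Growth, sampling and sequencing of the sets cannot be told apart from each other here.

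**Figure D4:**
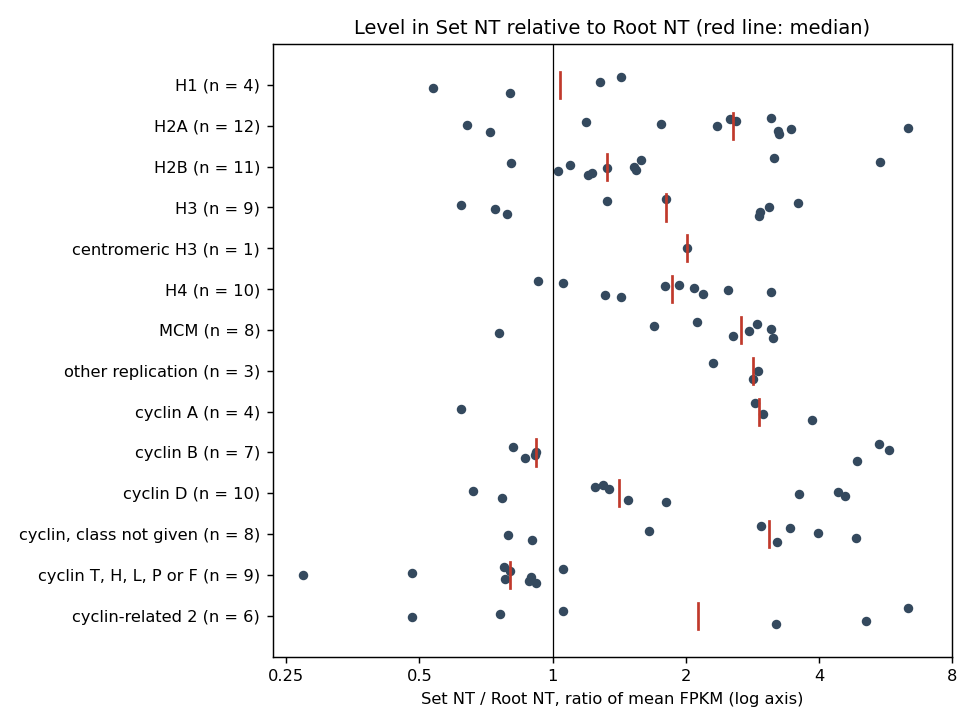
Ratio of mean FPKM in Set NT to that in Root NT (x axis, log scale) for each tested gene by kind (rows). Points are genes and red lines are medians. The MCM genes lie between 1.70 and 3.15 apart from Os05g0173700 at 0.755, and 3 B-type cyclins lie at 4.88 to 5.75 with the other 4 at 0.811 to 0.919.

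Other genes of the cell cycle, taken from lists by description, are given as counts of the genes tested. Of 38 genes of the replication fork and S phase, 29 fell and 2 rose in Root *ROX* roots (30.3% and 19.6% of all genes tested), with a median log2 difference of -0.38, and none was called in the Set libraries, where 3 were higher and 2 lower at an unadjusted p under 0.05, near the 7.05% and 8.7% of all genes (median 0.013). On the log2(FPKM + 1) scale the largest falls were those of genes for the single-stranded DNA-binding replication protein A. A smaller subunit (Os02g0829100) had 1.54 and 2.03 FPKM in Root *ROX* against 5.48 and 5.27 FPKM in Root NT (log2 difference -1.20, limma adjusted p = 4.51e-04). The A1 subunit (Os03g0214100) had 2.37 and 2.67 FPKM against 6.49 and 6.07 FPKM (-1.05). Other genes of this protein were not called, namely Os02g0776800 (70 kDa subunit) at -0.13 and Os01g0253600 (replication factor A protein 3) at -0.012. Ribonucleotide reductase, which makes deoxynucleotides, had 1.60 and 1.65 FPKM in Root *ROX* against 4.32 and 3.65 FPKM in Root NT for Os06g0127900. The genes of that list that rose were the origin recognition gene Os03g0184700 and Os01g0508100, a ferritin or ribonucleotide reductase-like gene. Examples in this paragraph were chosen after their values were seen.

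All 4 tested genes of nucleosome assembly and histone chaperones fell in Root *ROX* roots, among them the NAP gene Os02g0576700, with 44.3 and 44.3 FPKM in Root *ROX* against 61.3 and 61.3 FPKM in Root NT. The following counts stand against 30.3% of all genes that fell and 19.6% that rose in Root *ROX* roots. Of 62 genes of mitosis and cytokinesis 23 fell and 3 rose, of 26 tubulin genes 13 fell, and of 18 histone acetyltransferase, deacetylase and methyltransferase genes 9 fell and 1 rose. Of 11 genes under E2F, DP and retinoblastoma 5 fell, and 5 had a higher mean in Root *ROX* with none called. Retinoblastoma-related proteins are a brake on S phase genes. The low gene Os08g0538700 fell, with 0.992 and 0.911 FPKM in Root *ROX* against 1.93 and 2.09 FPKM in Root NT. The more abundant Os11g0533500 was not called, with 18.2 and 16.5 FPKM against 18.8 and 18.6 FPKM (limma adjusted p = 0.183). Of 15 genes of cyclin-dependent kinases and their inhibitors 5 fell and 1 rose, a share of falls near that of all genes. The kinase gene Os05g0483801 (CDKB2-1-like) was the only gene of these lists called in the Set libraries. It fell in both sets, with 5.24 and 5.61 FPKM in Root *ROX* against 9.56 and 7.78 FPKM in Root NT (limma adjusted p = 0.00593), and 1.27 and 1.64 FPKM in Set *ROX* against 4.85 and 4.86 FPKM in Set NT (adjusted p = 0.0229). The single genes given from these lists were named after their values were seen.

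**Figure D5:**
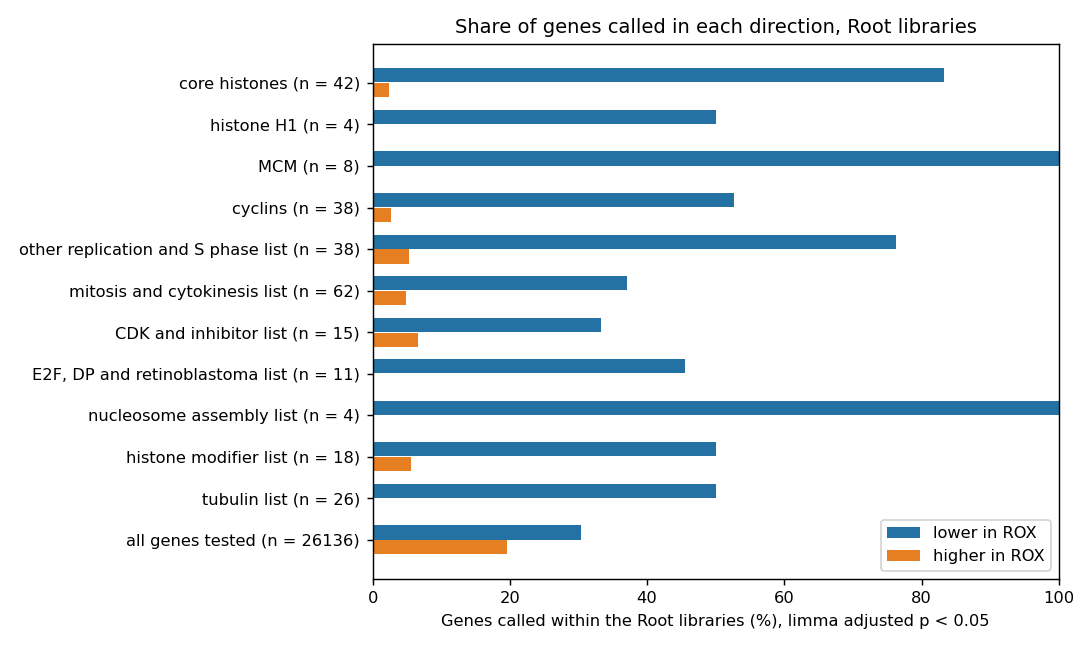
Share of tested genes called within the Root libraries (x axis, percent, limma adjusted p under 0.05), lower in *ROX* (blue) and higher in *ROX* (orange), for the gene groups described here and for all genes tested. The MCM genes and the 4 nucleosome assembly genes reached 100% lower, against 30.3% of all genes tested.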

How the data were processed

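For each gene and each transcript the authors deposited FPKM, made by a sequencing service from stranded libraries of total root RNA. The processing notes name the genome build IRGSP-1.0, and the aligner and quantification tool are not given in the sources used here. Start positions, 0-based as deposited, are given 1-based. Gene values equal the sums over their transcripts to within 5e-09 FPKM. 4 columns match no sample and were not used.

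From the deposited FPKM, log2(FPKM + 1) was compared for genes with a mean of at least 0.5 FPKM, which shrinks differences of low genes. Differences and their standard errors came from limma 3.58.1 (R 4.3.3; lmFit, eBayes with trend), and Benjamini-Hochberg adjustment ran over 26136 genes. 1 fit held the library set as a covariate, 1 was made within each set, and 1 tested the interaction of set and genotype. The fits were run on simulated data with the same added variation in every library. The pairs here differed in spread, so that run does not show how the fits perform on these libraries. Depth was estimated in Python 3.11.15 from genes with 1 transcript, where 92.3% to 93.7% of low values lay within 0.1 of a whole fragment. The 105 tested genes had a median of 245 estimated fragments in their lowest library, and 17 of them had under 50 in a library. In both styles of column name the same number stands on a *ROX* and an NT library, in the Set style as the number of the set. These numbers were not used as pairs in the main fits, and a replicate block was run as an alternative.

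The members and lists were chosen with earlier results of these data known. Named were, by kind, the 2 genes with the highest mean, all MCM genes, genes called with the set as a covariate or past the limits of the study, and the 5 largest interactions each way, 37 in all. Genes outside this rule are marked as named after their values were seen. As alternatives, results were recomputed with a pseudocount of 0.1, without a filter, a mean of at least 5 FPKM, quantile normalization, median ratio scaling, eBayes without a trend, sums over transcripts, no set covariate, averaged pairs, a replicate block, the limits of the study, also by ratios of mean FPKM (chosen after seeing the data), and leaving out each library. Promoter sequences were not analysed here.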

Additional observations from a re-analysis of the deposited data

Results flagged for a closer look

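Of the 37 genes named by rule, 21 had a difference between *ROX* and NT that differed between Root and Set libraries (21.5% of all genes tested). This was called by limma's interaction test with Benjamini-Hochberg adjustment. The naming rule itself takes in the largest interactions each way, so the count of 21 is partly fixed in advance. Of all 105 tested genes, 49 had the lower difference in Root and 3 the higher (10.8% and 10.7% of all genes tested). Values listed for the 21 are the Root minus the Set difference on the log2(FPKM + 1) scale, so a negative value means a lower Root difference. Among core histones they were -1.39 for Os06g0159450, -1.34 for Os05g0438700 and -0.45 for Os04g0450800 (H3), -1.37 for Os08g0490900 and -0.52 for Os01g0153100 (H2B), -1.34 for Os10g0418000, -1.28 for Os03g0279200 and -0.47 for Os05g0461400 (H2A), and -0.36 for Os10g0539500 (H4). For histone H1 they were -0.86 for Os04g0253000 and -0.45 for Os03g0799000. For replication genes they were -1.19 for PCNA (Os02g0805200), -0.88 for Os11g0484300, -0.86 for Os01g0544450, -0.84 for Os05g0235800, -0.83 for Os02g0797400 and -0.83 for Os05g0476200. For cyclins they were -0.63 for Os03g0607600 and 0.36 for Os02g0133000, and in the cyclin-related family 1.01 for Os05g0325200 and 0.65 for Os04g0552300. The core histones, H1, PCNA and the MCM genes among the 21 all had the lower difference in the Root libraries. For core histones named for a large interaction, that direction follows from the naming.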

How the results depend on the processing

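No difference of a named gene that was called within Root, with the set as a covariate or as an interaction changed direction under the alternatives run. Within Set, where none was called, 13 of 36 named genes changed direction in at least 1 alternative. Without the first Set *ROX* library 7 did so, and without the second 2. Without the first Set NT library 7 did so, and without the second 2. With median ratio scaling 2 did so, and with quantile normalization 1. Among the 13 were the MCM genes Os11g0484300, Os01g0544450, Os05g0235800, Os05g0476200 and Os09g0539400. Of all 105 genes, 80 were higher in Set *ROX*, and 66 without the first Set *ROX* and 68 without the first Set NT library. The count of 5 genes called with the set as a covariate was the least stable. It was 3 with quantile normalization, 3 with median ratio scaling and 2 with eBayes without a trend, 0 by the limits of the study on either scale, 0 without the set covariate and 0 with averaged pairs, and it ran from 0 to 5 with each library left out. The cause was not tested. Leaving out a library also takes away residual degrees of freedom, and the lone library of a pair is then assumed to vary like the others.

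Within the Root libraries the count of 74 ran from 59 to 65 with each library left out and from 51 (no filter) to 74 under the other scalings and filters, and was 3 by the limits of the study, or 18 with the 2-fold limit set on the ratio of mean FPKM, chosen after seeing the data. Within the Set libraries it was 1 by that ratio limit and 0 under every other alternative run. The count of 52 interactions ran from 33 to 55 with each library left out, the lowest being 33 without the first Root *ROX* and 33 without the first Root NT library. The count of 72 genes lower in Root *ROX* and higher in Set *ROX* was 52 with a mean of at least 5 FPKM, where 75 genes were tested, and ran from 59 to 76 with each library left out, the lowest without the first Set *ROX* library. This count was examined after seeing the data.

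Deviations of libraries with the same number correlated with r = 0.024 in the Root and r = 0.26 in the Set libraries. The numbers were not taken as pairing in the main fits, and whether they mark pairs in the Set libraries is not known. With a replicate block, 0 genes were called with the set as a covariate (1.05% of all genes tested), 71 within the Root and 0 within the Set libraries. Of single named genes, calls were lost in 16 of 355 alternative fits within the Root libraries, in 36 of 313 of the interaction and in 52 of 90 with the set as a covariate. The simulated data held 8 independent libraries, which these may not be. Depth limits genes with few fragments, and copies of near-identical histone genes cannot be resolved from these values.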

Other observations

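The H2A gene Os01g0974600 (chromosome 1, 43070805 to 43071206, IRGSP-1.0), 1 of the 13 genes below the filter and picked out after its values were seen, was detected almost only in *ROX* libraries. It had 0.234 and 0.482 FPKM in Root *ROX* against 0 and 0 FPKM in Root NT, and 1.35 and 1.43 FPKM in Set *ROX* against 0 and 0.0991 FPKM in Set NT. These values stand for an estimated 2.0 and 5.0 fragments in Root *ROX* against 0 and 0 in Root NT, and 15.1 and 14.9 in Set *ROX* against 0 and 0.998 in Set NT. With no filter on FPKM, limma called its interaction of set and genotype but no difference within a set or with the set as a covariate.

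In Set NT roots the cyclin P1-1 gene Os04g0628900 had the lowest level relative to Root NT of the 105 tested genes, at a ratio of 0.273, and the H2A gene Os03g0721900 the highest, at 6.37. Os03g0721900 had 3.24 and 4.11 FPKM in Root *ROX* against 2.50 and 3.33 FPKM in Root NT, and 23.2 and 25.2 FPKM in Set *ROX* against 18.03 and 19.1 FPKM in Set NT. The cyclin D1-1 gene Os06g0236600 had the lowest Root ratio of *ROX* to NT among the tested genes, 0.168, at 0.0871 and 0.0495 FPKM in Root *ROX* against 0.377 and 0.436 FPKM in Root NT, which stand for an estimated 3.0 and 2.0 fragments in Root *ROX* against 13.0 and 17.0 in Root NT. All were picked out after their values were seen.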
